A study of Rattus norvegicus with 320 samples.

Results

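MicroRNAs (miRNAs) of the miR-15, miR-16, miR-195 and miR-497 family are short regulatory RNAs that share a seed, the stretch of bases near the 5′ end with which a miRNA finds its target mRNAs. The family is known for holding back cell division, since its targets include D-type and E-type cyclins and the survival gene Bcl2, and in the heart miR-195 is known for its part in the exit of muscle cells from the cell cycle after birth. The genes of miR-15a and miR-16 are best known as genes lost in chronic lymphocytic leukaemia. The members were chosen by name, as every miRNA of the count table called miR-15a, miR-15b, miR-16, miR-195 or miR-497 that came from the 5p arm, the strand cut from the 5′ side of the hairpin, or carried no arm in its name. This gave 5 of the 616 miRNAs in the table, namely rno-miR-16-5p, rno-miR-15a-5p, rno-miR-15b-5p, rno-miR-195-5p and rno-miR-497-5p, written below without the prefix for rat.

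The study sequenced small RNA of 11 organs of male and female rats of the strain Fischer 344, untreated, whose ages were 2, 6, 21 and 104 weeks, called juvenile, adolescent, adult and aged. The organs were adrenal gland, brain, heart, kidney, liver, lung, skeletal muscle, spleen, thymus, testis of males and uterus of females. Each of the 80 groups of organ, sex and age had 4 rats, and replicates are different rats. From each rat 10 organs were taken, so organs share rats. Of the 320 libraries, 318 were used here, without the male brain replicate 3 of week 6 and the female spleen replicate 4 of week 104, which the study had removed. Total counts of the 318 libraries were 315550 to 10571766, with a median of 2848155.5. Levels are given as CPM, a library's counts scaled to a total of 1e6 over the table, and a change in the makeup of the other miRNAs moves a CPM as well. Where values are written as 1 number with a range in parentheses, they are the median with the lowest and the highest library.

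The labelled organs were compared with lists of miRNAs known to be abundant in a tissue, each summed per library and averaged over the medians of the 4 ages. The brain list (miR-124-3p and both arms of miR-9a) was highest in brain with 58265 CPM, and miR-122-5p, the miRNA of liver cells, was highest in liver with 29653 CPM. The striated muscle list was highest in skeletal muscle (125212 CPM), the miR-208 pair in heart (4799.9 CPM), the testis list in testis (81974 CPM) and the lymphocyte list in thymus (331742 CPM). The next organ for the lymphocyte list was brain, with 107014 CPM, nearly all of it miR-181a-5p, so this sum does not mark lymphocytes alone. The red cell list was highest in spleen (122205 CPM) and next in skeletal muscle (90012 CPM), where nearly all of it was miR-486, a miRNA also known from muscle cells, so this sum does not mark red cells in muscle. Highest were also the endothelial pair miR-126a in lung (52558 CPM), the smooth muscle pair miR-143-3p and miR-145-5p in uterus (408083 CPM) and the endocrine pair miR-7a-5p and miR-375-3p in adrenal gland (6036 CPM). The epithelial miR-200 list was highest in kidney (4537 CPM). The list chosen for kidney was highest in liver, at 220811 CPM against 57339 CPM in kidney, so it does not mark kidney here.

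Single libraries stood apart from their groups in the family's counts, in markers or in quality. The male adrenal gland replicate 1 of week 21 had 173 CPM of miR-195-5p, 20.5 of miR-497-5p and 10.9 of miR-15b-5p, each the lowest of its 8 libraries, and with 1631 CPM of miR-16-5p and 110.4 of miR-15a-5p it was lowest for these as well. The female heart replicate 4 of week 104 was lowest for miR-16-5p (5934 CPM) and miR-15a-5p (312), and the female heart replicate 1 of week 6 for miR-195-5p (677) and miR-15b-5p (129.8). Of week 104, the female replicate 1 of lung (572 CPM) and of spleen (1511) were the highest for miR-15b-5p, the male thymus replicate 1 (128) the lowest. The testis replicate 3 of week 104 was lowest for miR-16-5p (3428 CPM). The female brain replicate 4 of week 104 was highest for miR-195-5p (1617 CPM). By the study's quality records this brain library held an unusually low share of miRNA reads. Every comparison was also fitted without these 8 libraries, a choice made after seeing the data. Of the 10 female replicates 1 of week 104, looked at after these values were seen, 5 were the highest of their organ and age for miR-15b-5p, those of adrenal gland (91.1 CPM against at most 76.1), heart (175 CPM against at most 166), liver (229 CPM against at most 154), lung and spleen. Those of liver, lung and spleen were also the highest for miR-15a-5p and miR-16-5p, 1 of the 10 was for miR-497-5p and 0 for miR-195-5p. That of uterus was the lowest for miR-15b-5p, miR-15a-5p and miR-16-5p. Of the testis list, miR-34c-5p was highest in 3 of these 10. They were spleen (7453 CPM against at most 337), liver (863 against at most 352) and adrenal gland (254 against at most 212). The rest of this list is not given here. Over all miRNAs 2.92% were highest in at least 5 of the 10, and 3.25% among the 123 at least as abundant as the rarest member. The share highest in at least 3 of the 10 was not taken. The sources used here do not say that a number names 1 rat.

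Of the 5 members, 4 were matched to RefSeq (build GRCr8), whose mature sequences show what the members share and where they differ. They are written 5′ to 3′ with the seed, bases 2 to 8, in capitals, first the members and their relative miR-322-5p, which has the same seed, then miR-503-5p, whose seed ends in another base.
miR-16-5p: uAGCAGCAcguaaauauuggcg
miR-15b-5p: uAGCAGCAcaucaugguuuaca
miR-195-5p: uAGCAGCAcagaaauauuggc
miR-497-5p: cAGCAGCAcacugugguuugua
miR-322-5p: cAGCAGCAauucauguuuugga
miR-503-5p: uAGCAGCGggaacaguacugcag
miR-15a-5p is named only. With positions counted from 1 at the 5′ end, miR-195-5p differs from miR-16-5p by G10A and U11G within their 21 shared positions, while miR-497-5p differs from miR-195-5p at 9 of 21 positions and miR-15b-5p from miR-16-5p at 8 of 22. miR-15b-5p (chr2:155555197-155555218, plus strand) and miR-16-5p (chr2:155555343-155555364, plus strand) are neighbours with 124 bases between them, and the gene Smc4, a condensin subunit, spans both. miR-497-5p (chr10:55450172-55450193, plus strand) and miR-195-5p (chr10:55450509-55450529, plus strand) lie 315 bases apart, with no other annotated gene spanning them. miR-15a and miR-15b are close relatives, and how the deposited counting split reads between like sequences was not tested.

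All 5 members were counted in all of the 320 libraries, and none was near the floor of detection. The lowest single count was 2374 for miR-16-5p, 92 for miR-15a-5p, 14 for miR-15b-5p, 90 for miR-195-5p and 43 for miR-497-5p. By mean CPM miR-16-5p ranked 22 of 616 with 12922 CPM, and the other 4 were far below it. miR-195-5p ranked 79 with 793 CPM and miR-15a-5p 95 with 536 CPM. miR-497-5p ranked 116 with 332 CPM and miR-15b-5p 123 with 288 CPM. From its lowest to its highest library miR-15b-5p spanned 179-fold, the widest of the 5. miR-15a-5p (32.4-fold) and miR-16-5p (32.7-fold) spanned the least, miR-195-5p 49.3-fold and miR-497-5p 65.8-fold. The lowest library of miR-16-5p, miR-497-5p and miR-15b-5p was the male adrenal gland replicate 1 of week 21, which stood apart.

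**Figure D1:**
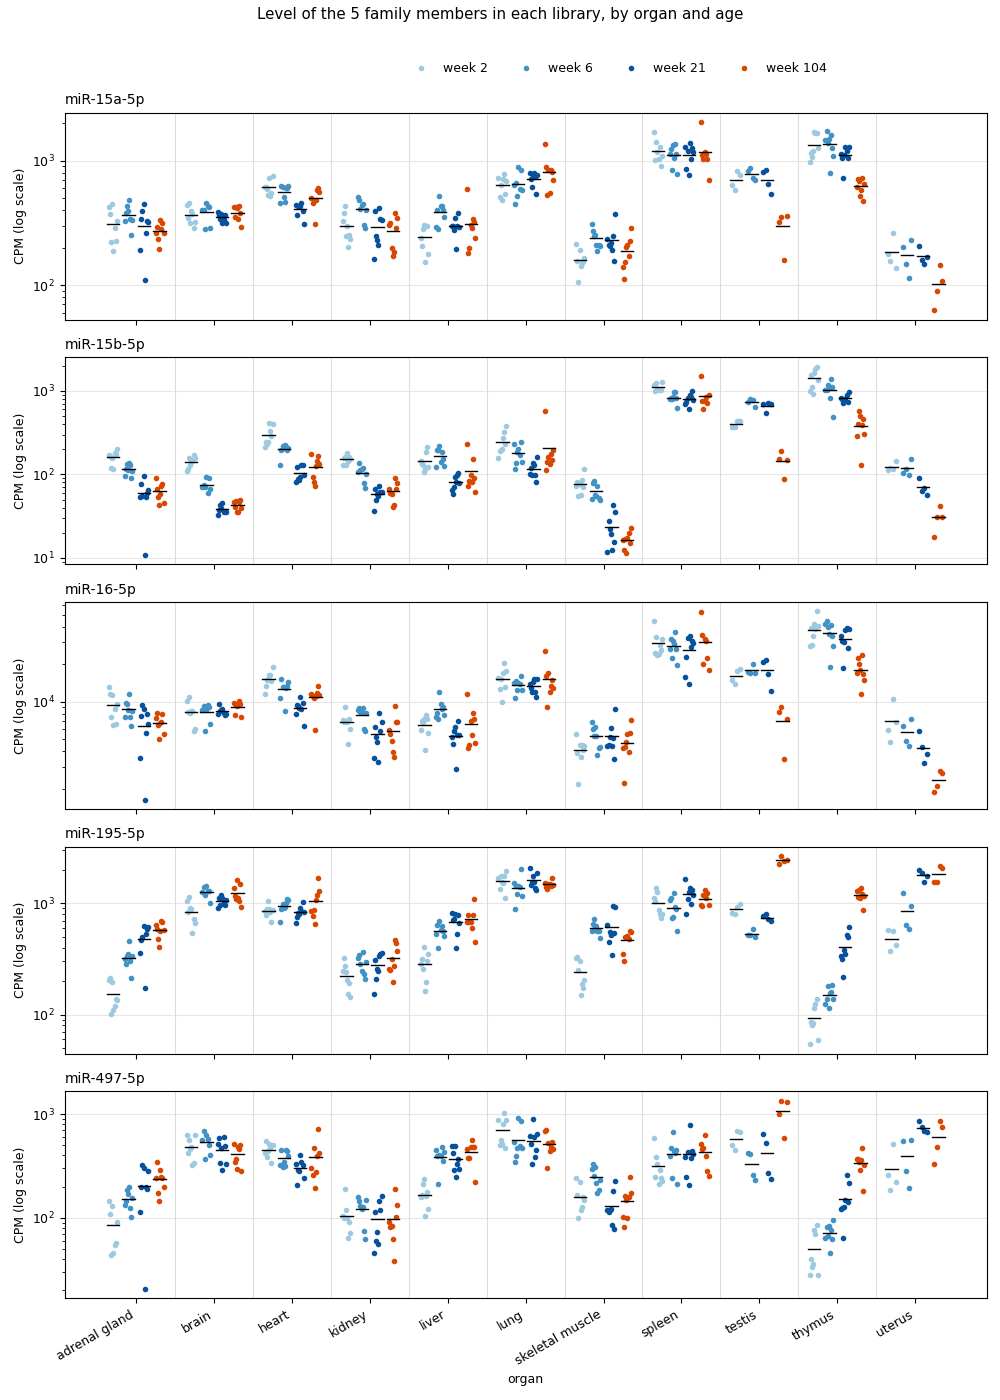
Level of each member in every library, by organ and age, in CPM on a log axis, with a point per library (4 to 8 per organ and age) and a black line at the mean of the organ and age. miR-16-5p was highest in thymus and spleen (means over the libraries of all ages 30856 and 28327 CPM) and lowest in skeletal muscle (4826 CPM), while miR-195-5p was highest in lung (1519 CPM) and lowest in kidney (277 CPM). With TMM in place of library size, medians put miR-16-5p lowest in brain and miR-195-5p highest in uterus.

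Levels were first compared between organs. miR-16-5p, the most abundant member and a common miRNA of blood and lymphoid cells, was highest in the lymphoid organs, with 32225 (11527 to 53299.7) in thymus and 28688 (13776 to 53125) in spleen CPM over all ages. A middle group had 16770.4 (3428 to 21664) in testis, 14050.5 (9082 to 25419.8) in lung and 11548 (5934 to 18965) in heart CPM. Lower values were 8553 (5788 to 10881) in brain, 7648 (1631 to 13109) in adrenal gland, 6964 (2881 to 12038) in liver and 6818 (3264 to 9188) in kidney CPM. The lowest organs were uterus with 4578 (1864 to 10557) and skeletal muscle with 4487 (2182 to 8805) CPM. The lowest thymus library overlapped the heart and lung range, and testis spanned from the level of muscle to that of spleen, since its aged libraries lay apart from the younger ones. In bulk samples such as these, fewer cells of a type and less RNA per cell cannot be told apart.

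miR-15a-5p, which in mammals is made together with a copy of miR-16, had the same leading organs. It had 1123 (699.5 to 2041) in spleen, 1117 (470.2 to 1716) in thymus and 703 (451 to 1345) in lung CPM. Next came 671 (159.6 to 870.4) in testis, 515 (309 to 745) in heart and 372 (280.4 to 455) in brain CPM. The lowest values were 324 (110.4 to 481) in adrenal gland, 309.8 (163 to 508) in kidney, 297 (154 to 588) in liver, 206 (106 to 375) in skeletal muscle and 152 (63.0 to 264) in uterus CPM. Only spleen and thymus had medians more than 1.5-fold above that of lung, and the ranges of kidney, adrenal gland and liver overlapped almost fully.

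miR-15b-5p, the neighbour of miR-16-5p in Smc4, was concentrated in the same lymphoid organs and in testis. It had 863 (128 to 1946) in thymus, 843 (603 to 1511) in spleen and 493 (87.1 to 807) in testis CPM. It was far lower in the other organs, with 171 (73.2 to 415) in heart, 163 (80.0 to 572) in lung and 118 (58.3 to 229) in liver CPM. The lowest values were 93.9 (18.0 to 154) in uterus, 93.8 (10.9 to 203) in adrenal gland, 79.0 (36.2 to 179.6) in kidney, 48.9 (32.6 to 169) in brain and 46.1 (11.4 to 116) in skeletal muscle CPM. Every spleen library lay above every library of the 8 organs other than thymus and testis.

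miR-195-5p, known from heart and skeletal muscle, had another order. It had 1494 (884 to 2084) in lung, 1385 (376 to 2184) in uterus, 1099.6 (538 to 1617) in brain and 1078 (569 to 1660.5) in spleen CPM. Values of 875 (648 to 1683) in heart, 797 (503 to 2662) in testis, 586 (163 to 1083) in liver and 506 (150.1 to 940.3) in skeletal muscle CPM followed. The lowest medians were 354 (102 to 693) in adrenal gland, 264 (145 to 468) in kidney and 200.3 (54.0 to 1366) in thymus CPM. Thymus, where miR-16-5p was highest over all ages together, had the lowest median over all ages together, and its highest library lay within the range of lung. miR-497-5p followed nearly the same order, with 533 (186 to 857) in uterus, 518 (299.6 to 1040.0) in lung, 516 (229 to 1351) in testis and 486 (285 to 683) in brain CPM. Values of 395 (208 to 781) in spleen, 375 (103 to 567) in liver and 367 (195.1 to 727) in heart CPM came next. The lowest were 162 (20.5 to 347) in adrenal gland, 162 (78.8 to 332) in skeletal muscle, 101 (38.3 to 192) in kidney and 90.2 (28.0 to 473) in thymus CPM.

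These orders are by library size, and with TMM (trimmed mean of M values, which sets libraries on the level of their bulk of miRNAs) several changed. The scaled median of miR-195-5p was 2857 CPM in uterus and 1433 in lung, so uterus came first. miR-16-5p in brain went from rank 6 to 11, with 5322 CPM against 6819.9 in skeletal muscle. For miR-15a-5p thymus (1470.4 CPM) came before spleen (832), and brain was lowest for miR-15a-5p (223 CPM) and miR-15b-5p (34.6). Over all ages together thymus stayed first for miR-16-5p and miR-15b-5p and last for miR-195-5p and miR-497-5p, and uterus first for miR-497-5p.

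The orders over all ages did not hold at each age. For miR-16-5p and miR-15b-5p thymus had the highest median at weeks 2, 6 and 21 by either scaling, but spleen at week 104, with 30564 CPM of miR-16-5p against 17537 in thymus and 762 of miR-15b-5p against 399. At week 21 their medians of miR-15b-5p were nearly equal (796 CPM in thymus and 796 in spleen). For miR-195-5p thymus was lowest by CPM at weeks 2 and 6, ranked 10 of 11 at week 21 and 4 at week 104, and with TMM 10 at week 2, 11 at weeks 6 and 21 and 5 at week 104. For miR-497-5p it was lowest at weeks 2 and 6 by either scaling and ranked 7 by CPM and 6 with TMM at week 104. At week 104 testis had the highest median of both miR-195-5p (2438 CPM) and miR-497-5p (1157 CPM) by either scaling.

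Each pair of organs was tested at each age with edgeR's quasi-likelihood test on counts scaled by TMM. A difference was called at a Benjamini-Hochberg adjusted p under 0.05 over all 616 miRNAs together with at least 1.5-fold. Of 275 tests of the 5 members (55 pairs of organs each), 193 were called at week 2, 200 at week 6, 179 at week 21 and 163 at week 104. The background over all miRNAs was 62.1%, 60.3%, 58.9% and 54.1% of tests at these ages, and 69.3%, 71.8%, 70.6% and 65.7% among the 123 miRNAs at least as abundant as the rarest member. The members' shares of 70.2%, 72.7%, 65.1% and 59.3% were near these shares. Pairs called at all 4 ages were 34 of 55 for miR-15b-5p, 23 for miR-15a-5p, 20 for miR-16-5p and 17 each for miR-195-5p and miR-497-5p. Pairs called at no age were 2 each for miR-195-5p and miR-497-5p, 7 for miR-15b-5p, 10 for miR-15a-5p and 11 for miR-16-5p. Over all miRNAs 35.8% of pairs were called at all 4 ages and 18.4% at none, and 45.6% and 10.1% among those at least as abundant.

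Many neighbours in the order of mean CPM were not called as different. No share over all miRNAs was taken for neighbours, so the counts below describe the members only. Ranking the 11 organs for each member at each age gave 200 pairs of neighbours, of which 94 were called with TMM but 35 with scaling by library size alone, and 22 of the TMM calls ran opposite to the CPM order, 16 of them with brain. Under both scalings 21 neighbours were called, 20 of them with the same sign. For miR-16-5p these were spleen above testis at weeks 2 and 6. For miR-15a-5p they were spleen above testis and heart above brain at week 2, adrenal gland above skeletal muscle at week 6, and thymus above lung at week 21. For miR-15b-5p they were spleen above testis and uterus above skeletal muscle at week 2, testis above heart at week 6, testis above lung at week 21, and spleen above thymus, thymus above lung and uterus above skeletal muscle at week 104. For miR-195-5p they were lung above spleen and uterus above liver at week 2 and kidney above thymus at week 6. For miR-497-5p they were uterus above liver at week 2, skeletal muscle above adrenal gland and kidney above thymus at week 6, and skeletal muscle above kidney at week 104. Brain against skeletal muscle for miR-15b-5p at week 21 was called under both with opposite signs (-0.91 with TMM and 0.73 by library size). All other neighbours are ranked by their means only.

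**Figure D2:**
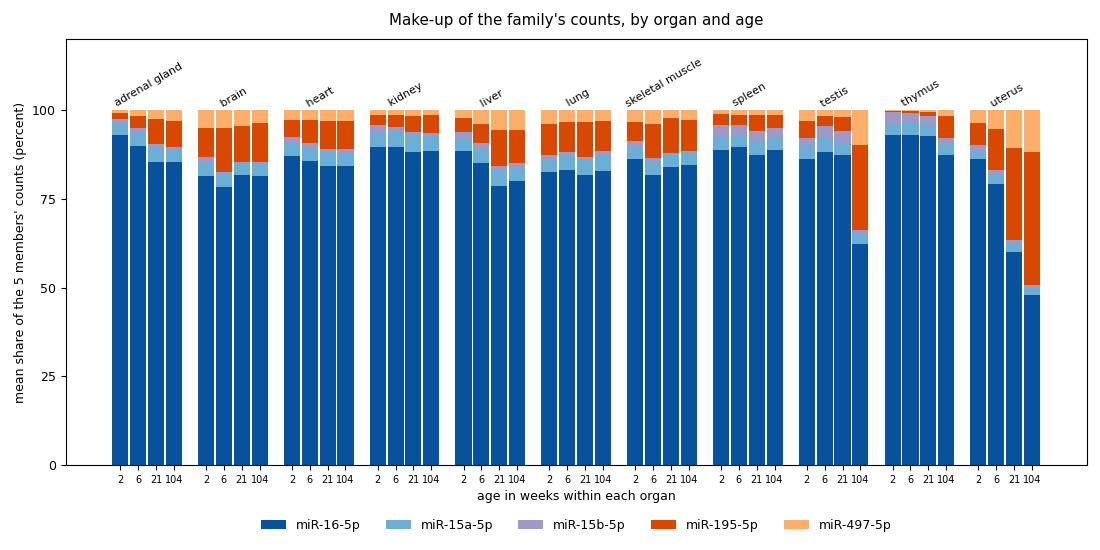
Mean share of the 5 members in their summed counts, in percent from 0, as stacked bars for each organ and age (4 to 8 libraries each). miR-16-5p made up most of the sum in all groups except aged uterus, where its median share was 48.1% and that of miR-195-5p 36.6%.

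Because a share within a library needs no scaling between libraries, the members were also set against their own sum. In thymus the share of miR-16-5p was 93.2% (91.3 to 93.8) at week 2 and 87.7% (82.5 to 89.5) at week 104, while that of miR-195-5p was 0.235% (0.136 to 0.296) and 5.57% (4.58 to 9.78). In testis the share of miR-16-5p was 87.7% (85.0 to 88.9) at week 21 and 64.7% (51.3 to 68.6) at week 104, and that of miR-195-5p 3.55% (3.20 to 4.81) and 20.4% (19.0 to 36.1). In uterus the share of miR-16-5p was 86.5% (83.9 to 88.2), 79.8% (75.3 to 81.5), 59.4% (56.9 to 64.7) and 48.1% (46.2 to 49.4) at the 4 ages, and that of miR-195-5p 6.03% (4.65 to 8.22), 10.8% (10.3 to 14.5), 26.7% (22.3 to 27.4) and 36.6% (36.4 to 40.4). For both members the aged libraries of these 3 organs lay fully outside the range of the youngest ones. In brain, by contrast, the share of miR-16-5p was 81.9% (77.3 to 85.9) at week 2 and 81.5% (79.6 to 83.6) at week 104, with overlapping ranges. Of the sum of the 5 members and miR-322-5p, the share of miR-322-5p was 32.9% (28.9 to 34.0) in adrenal gland at week 2 and 9.93% (8.35 to 13.0) at week 104.

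**Figure D3:**
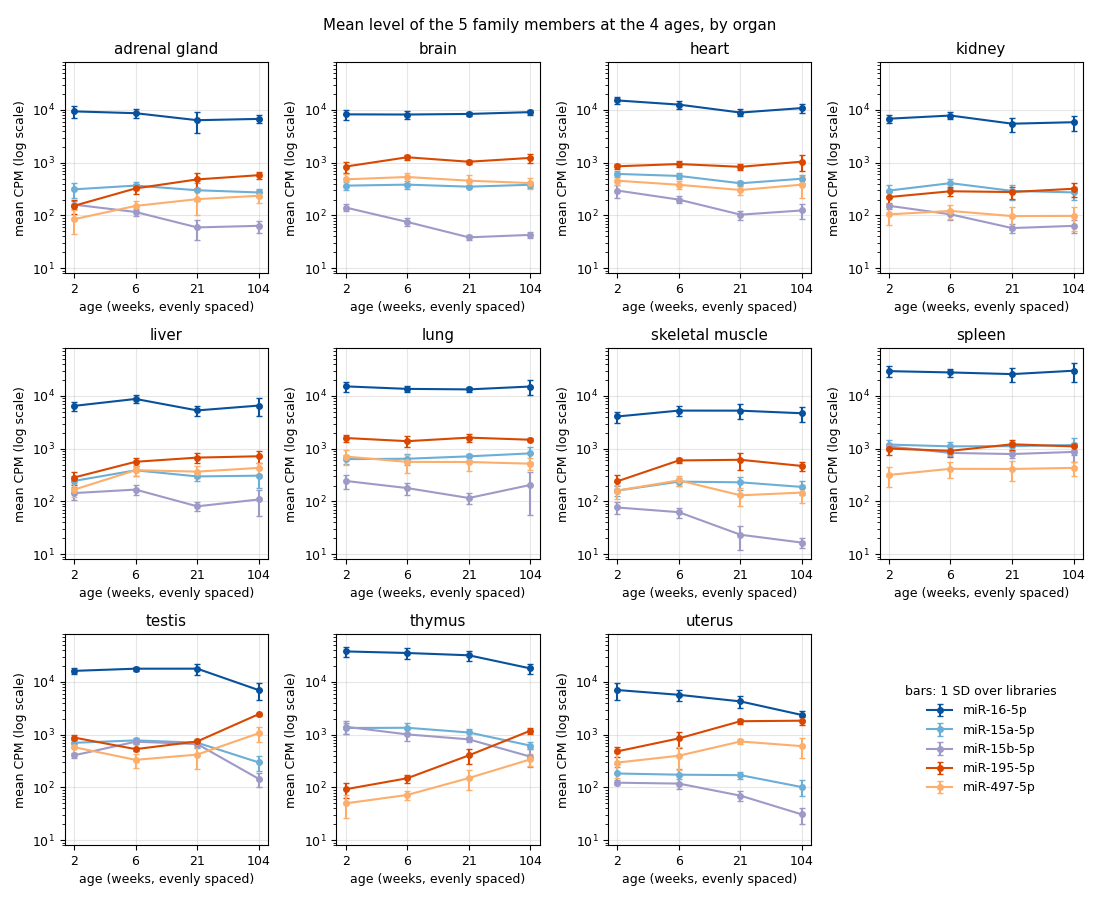
Mean level of the 5 members at each age in CPM on a log axis, with bars of 1 SD over libraries and 1 panel per organ (n = 4 in testis and uterus, 7 or 8 elsewhere). The ages are evenly spaced, not to scale. The mean of miR-195-5p in thymus was 92.2 CPM at week 2 and 1189 at week 104, while miR-15b-5p in brain was at 141 and 42.7 CPM.

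Rises with age were mostly of miR-195-5p and miR-497-5p and falls mostly of miR-15b-5p, while few changes of miR-16-5p and miR-15a-5p were called. Each organ was fitted on its own, and steps between consecutive ages share the libraries of the middle age. From week 2 to 6, 17 of 55 tests of the members were called as rises and 4 as falls, against a background over all miRNAs of 12.0% and 18.6%. From week 6 to 21, 8 were rises and 6 falls, against 5.28% and 7.62%. From week 21 to 104, 5 were rises and 5 falls, against 6.30% and 7.45%. Among miRNAs at least as abundant the background was 20.0% and 17.4%, 9.76% and 9.39%, and 10.1% and 10.6% for these steps. Of 33 tests each, miR-195-5p had 14 rises and 1 fall, miR-497-5p 11 and 1, miR-15b-5p 2 and 11, miR-15a-5p 2 and 1, and miR-16-5p 1 and 1. With library size in place of TMM the counts were 10 and 1, 6 and 1, 2 and 10, 1 and 2, and 0 and 4.

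The scaling matters here. The log2 change by library size minus that by TMM, taken for each miRNA, had a median over all miRNAs beyond 0.1 in size in 22 of the 33 organ steps. This median was -1.24 in testis from week 21 to 104, -0.54 in skeletal muscle from week 6 to 21, -0.52 in heart and -0.51 in uterus from week 2 to 6, and 0.35 in thymus from week 21 to 104. In testis at its last step the median change itself was 0 by TMM and -1.13 by library size. In each account that follows, changes are by TMM, and the value by library size is given where the call ended, the sign turned or the value moved by over 1.5 times.

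Thymus is the organ where T cells mature, and it shrinks with age. Of 616 miRNAs 18 rose in thymus and 61 fell from week 2 to 6, and 55 and 22 from week 6 to 21. In this organ miR-195-5p rose with age. The level was 84.1 (54.0 to 137) CPM at week 2, 148 (114 to 183) at week 6, 364 (217 to 616) at week 21 and 1200.2 (873 to 1366) at week 104. The ranges of weeks 6, 21 and 104 did not overlap, and those of weeks 2 and 6 overlapped. It rose at every step by edgeR's test (log2 change 0.74, SE 0.16, adjusted p = 0.00072 for week 2 to 6, log2 change 1.44, SE 0.16, adjusted p = 4.72e-08 for week 6 to 21, log2 change 1.24, SE 0.16, adjusted p = 5.76e-08 for week 21 to 104). miR-497-5p, its neighbour in the genome, had 38.1 (28.0 to 84.9) CPM at week 2, 71.5 (46.2 to 95.6) at week 6, 135 (64.3 to 257) at week 21 and 355 (183 to 473) at week 104. Its ranges overlapped from each age to the next. It rose as well (log2 change 0.59, SE 0.17, adjusted p = 0.0129 for week 2 to 6, log2 change 1.08, SE 0.17, adjusted p = 1.19e-05 for week 6 to 21, log2 change 0.87, SE 0.16, adjusted p = 3.07e-05), and by library size the first of these was 0.59 with adjusted p = 0.0591 and no longer called, while the last was 1.23.

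The other 3 members fell in thymus between weeks 21 and 104, a step at which 106 of 616 miRNAs were called as rising in thymus and 120 as falling. miR-16-5p had 38718 (27958 to 53299.7) CPM at week 2, 37525 (18851 to 44239) at week 6, 32225 (18762 to 39372) at week 21 and 17537 (11527 to 23728) at week 104. All adult libraries but 1 lay above every aged one, and the fall was the single fall called for this member (log2 change -1.19, SE 0.14, adjusted p = 2.26e-08). miR-15a-5p had 1117 (725 to 1283) CPM at week 21 and 634 (470.2 to 721) at week 104, without overlap (log2 change -1.19, SE 0.12, adjusted p = 5.56e-10). miR-15b-5p had 1452 (913 to 1946), 1053 (484 to 1376), 796 (718 to 977) and 399 (128 to 577) CPM at the 4 ages, and every aged library was below every adult one (log2 change -1.47, SE 0.20, adjusted p = 2.01e-07). Without the male replicate 1 the last change was -1.35, SE 0.19, adjusted p = 2.41e-07. By library size the changes of miR-16-5p, miR-15a-5p and miR-15b-5p were -0.82, -0.82 and -1.10, all still called.

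Markers of other cells moved with these changes. The summed lymphocyte list (4 of 4 miRNAs in the table, none at 0, miR-181a-5p the most abundant) was 440611 (353481 to 498865) CPM at week 2, 353903 (293853 to 417885) at week 21 and 93514 (25248 to 126576) at week 104, and 3 of its 4 miRNAs fell from week 21 to 104, among them miR-142-3p (-2.58, SE 0.16, adjusted p = 1.61e-14), while miR-150-5p was not called (0.21, SE 0.17, adjusted p = 0.366). The endothelial pair miR-126a was 4522 (2993 to 7813) CPM at week 6, 8072 (4295 to 16325) at week 21 and 20718 (9242 to 29035) at week 104, and both rose at both of these steps. The red cell list (4 of 4, miR-486 the most abundant) was 1580.0 (1156 to 5303) and 15147 (6286 to 93919) CPM at weeks 21 and 104, where all 4 rose. The epithelial list (3 of 3, miR-200b-3p the most abundant) was 1255 (716 to 2245) and 3626 (279 to 5744) CPM, where 2 rose. The part of these cells in the changes of the family was not tested.

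In testis the aged libraries stood apart. miR-195-5p was at 816, 797, 934 and 979 CPM in the 4 libraries of week 2, at 516, 521, 586 and 503 at week 6, at 766, 797, 724 and 689 at week 21 and at 2275, 2662, 2411 and 2464 at week 104. Each age was separate from the next, with the aged libraries above all others. It fell from week 2 to 6 (log2 change -0.69, SE 0.20, adjusted p = 0.00971) and rose from week 21 to 104 (log2 change 3.07, SE 0.22, adjusted p = 4.78e-09), the largest rise of any member by either scaling (1.72 by library size). The rise from week 6 to 21 (log2 change 0.74, SE 0.20, adjusted p = 0.0495) was 0.49 with adjusted p = 0.123 by library size. miR-497-5p was at 505, 447, 695 and 672 CPM at week 2, 427, 413, 261 and 229 at week 6, 644, 526, 272 and 235 at week 21 and 997, 1351, 596 and 1318 at week 104. A single aged library lay within the adult range and the other 3 above it. Its fall from week 2 to 6 was called (log2 change -0.79, SE 0.26, adjusted p = 0.0183), though not by library size (-0.80 with adjusted p = 0.073), and so was its rise from week 21 to 104 (log2 change 2.65, SE 0.27, adjusted p = 2.54e-07, by library size 1.35).

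miR-15b-5p in testis was at 371, 371, 439.7 and 438 CPM at week 2, 728, 807, 769 and 638 at week 6, 701, 546, 720.4 and 688 at week 21 and 154, 192, 87.1 and 147 at week 104. Neither the libraries of weeks 2 and 6 nor those of weeks 21 and 104 overlapped. It rose from week 2 to 6 (log2 change 0.89, SE 0.18, adjusted p = 0.000656) and fell from week 21 to 104 (log2 change -0.95, SE 0.18, adjusted p = 0.000158, by library size -2.20). miR-16-5p was at 21015, 21664, 16558 and 12182 CPM at week 21 and 8202, 9094, 3428 and 7232 at week 104, again without overlap. Here the scalings part ways, since by TMM its change was -0.11 (adjusted p = 0.679) and by library size -1.35 with adjusted p = 0.000301. The same holds for miR-15a-5p, whose change was 0.02 by TMM (adjusted p = 0.972) and -1.24 with adjusted p = 0.000467 by library size, so the sign turned.

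Much else in testis changed at that step too, with 156 of 616 miRNAs called as rising and 151 as falling. From week 2 to 6 these were 111 and 161. The testis list (4 of 4, none at 0, miR-741-3p the most abundant at week 2 and miR-34c-5p later) was 1748 (1410.2 to 2210.2) CPM at week 2, 160704 (147163 to 176604) at week 6, 164928 (145760.2 to 167633) at week 21 and 514 (71.5 to 2406) at week 104, with all 4 miRNAs rising from week 2 to 6 and all 4 falling from week 21 to 104. The smooth muscle pair was 169290.4 (138459.6 to 220316) and 39919 (17615 to 58309.7) CPM at weeks 21 and 104, and both fell. At the 4 ages miR-486 of the red cell list was 3602 (3123 to 4377), 16777 (12013 to 21195), 15739 (10829 to 22725) and 952 (855 to 1709) CPM. miR-375-3p of the endocrine pair was 97.7 (91.6 to 123), 3396 (3233 to 3568), 3437 (2754 to 3587) and 43.0 (16.6 to 67.9) CPM. miR-200b-3p of the epithelial list was 788 (423 to 1271), 156 (95.9 to 677), 68.1 (38.6 to 129) and 16.8 (5.47 to 25.4) CPM. The part of these changes in the values of the family was not tested. By the study's description, testis libraries of adolescent and adult rats consisted mostly of piRNA, another class of small RNA, which the miRNA totals leave out.

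In uterus 75 of 616 miRNAs rose and 119 fell from week 2 to 6. The numbers were 27 and 29 from week 6 to 21, and 21 and 59 from week 21 to 104. In this organ miR-195-5p rose until adulthood. The 4 libraries were at 576, 376, 559 and 419.9 CPM at week 2, at 1228, 639, 591 and 939 at week 6, at 1990.2, 1884, 1543 and 1776 at week 21 and at 1542, 1560.2, 2184 and 2081 at week 104. The first 3 ages were fully separate, and the last 2 overlapped. The first 2 steps were called (log2 change 1.31, SE 0.21, adjusted p = 8.01e-05 and log2 change 1.03, SE 0.21, adjusted p = 0.00282), the first with 0.82 with adjusted p = 0.0117 by library size. miR-497-5p was at 259.7, 186, 512 and 224 CPM at week 2, 555, 286, 194 and 561 at week 6, 857, 754, 686 and 675 at week 21 and 329, 484, 856 and 753 at week 104. Weeks 2 and 6 overlapped, and weeks 6 and 21 did not. Its rises at the first steps (log2 change 0.94, SE 0.26, adjusted p = 0.00938 and log2 change 0.89, SE 0.26, adjusted p = 0.0355) were not called by library size (0.44 with adjusted p = 0.35, and 0.90 with adjusted p = 0.154).

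The same organ held falls of miR-15b-5p, at 113, 118, 116 and 143 CPM at week 2, 104, 116, 97.8 and 154 at week 6, 90.0, 63.9, 68.8 and 56.1 at week 21 and 18.0, 31.0, 42.4 and 31.1 at week 104. The ranges of weeks 6 and 21 and those of weeks 21 and 104 did not overlap. Both falls were called (log2 change -0.85, SE 0.19, adjusted p = 0.00578 and log2 change -0.73, SE 0.19, adjusted p = 0.0116), the first of them with -0.76 with adjusted p = 0.131 and the second with -1.19 with adjusted p = 0.00501 by library size. miR-16-5p was at 5880.2, 4772, 10557 and 6907 CPM at week 2 and 1864, 2112, 2776 and 2681 at week 104. Its change from week 21 to 104 was -0.36 (adjusted p = 0.235) by TMM and -0.86 with adjusted p = 0.0164 by library size. The smooth muscle pair (2 of 2, miR-143-3p the most abundant) was 257348 (240375 to 303334) CPM at week 2 and 450141 (441031 to 451052) at week 6, where both rose, 482739 (426850.3 to 518041) at week 21 and 442103 (432523 to 468679.5) at week 104. Of the lymphocyte list, miR-142-3p was 13.4 (7.79 to 23.0) and 35.6 (32.6 to 86.9) CPM at weeks 2 and 6, and miR-142-5p 248 (184 to 521) and 705 (582 to 1022). At the same ages miR-181a-5p was 33985 (20131 to 39612) and 12312 (9290 to 16539) CPM, and miR-150-5p 421 (281 to 589) and 144 (110 to 304). The lymphocyte list (4 of 4, miR-181a-5p the most abundant) was 13105 (10545 to 17606) CPM at week 6 and 9950.0 (9255 to 13939) at week 21, where 2 of 4 rose, namely miR-142-3p (1.41, SE 0.30, adjusted p = 0.00476) and miR-142-5p (1.12, SE 0.23, adjusted p = 0.00303). From week 21 to 104 miR-142-3p, at 129.8 (102 to 157) and then 43.97 (35 to 65.4) CPM, fell without overlap (-0.98, SE 0.30, adjusted p = 0.0361). miR-142-5p, at 1624 (1566 to 2028) and then 732 (582 to 1151) CPM, did not overlap either but was not called (-0.63, SE 0.23, adjusted p = 0.074). The summed list was 10599 (5568 to 12436) CPM at week 104. Of the red cell list miR-486 fell from week 6 to 21 (-1.36, SE 0.35, adjusted p = 0.0189). The part of these markers in the changes of the family was not tested.

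Skeletal muscle, where 97 of 616 miRNAs rose in the first step and 148 fell, had the largest rise of miR-195-5p in that step. The level was 229 (150.1 to 327) CPM at week 2, 587 (493 to 726) at week 6, 549 (342 to 940.3) at week 21 and 500.3 (303 to 559.8) at week 104, and every library of week 6 was above every library of week 2 (log2 change 1.66, SE 0.15, adjusted p = 1.76e-11). miR-497-5p had 153 (101 to 240.1) CPM at week 2 and 242 (174 to 332) at week 6, with overlap (log2 change 0.93, SE 0.17, adjusted p = 2.61e-05, by library size 0.63). Its later level was 119 (78.8 to 227) CPM at week 21, a change of -0.37 that was not called by TMM (adjusted p = 0.0878) but was by library size (-0.92 with adjusted p = 0.000437). miR-16-5p had 4245 (2182 to 5506) and 5328 (3694 to 6919) CPM at these 2 ages, its only called rise (log2 change 0.65, SE 0.17, adjusted p = 0.0014), with 0.35 with adjusted p = 0.131 by library size. miR-15a-5p had 156 (106 to 214) and 228 (188 to 309.9) CPM (log2 change 0.85, SE 0.15, adjusted p = 1.37e-05), and 0.55 with adjusted p = 0.00631 by library size, short of 1.5-fold.

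miR-15b-5p went the other way in skeletal muscle, with 73.8 (55.4 to 116) CPM at week 2, 56.3 (49.4 to 82.5) at week 6, 20.8 (11.8 to 42.7) at week 21 and 16.6 (11.4 to 22.6) at week 104. Every library of week 21 was below every library of week 6 (log2 change -0.92, SE 0.20, adjusted p = 0.000318, by library size -1.43). At this step 65 of 616 miRNAs rose in skeletal muscle and 147 fell. The striated muscle list (4 of 4, miR-133a-3p the most abundant) was 75394 (58857 to 105612) CPM at week 2 and 141278 (124748 to 163164) at week 6, where 2 of its miRNAs rose. Of the red cell list 3 of 4 fell from week 6 to 21, among them miR-451-5p (-1.33, SE 0.25, adjusted p = 4.3e-05), and the same 3 rose from week 21 to 104 (miR-451-5p 1.38, SE 0.25, adjusted p = 0.000163). miR-486 rose from week 2 to 6 (1.04, SE 0.22, adjusted p = 0.000165) and was not called from week 6 to 21 (-0.45, SE 0.22, adjusted p = 0.104). The summed list was 76083 (41029 to 161263) CPM at week 2, 139229 (93686 to 176906) at week 6, 70729 (55056 to 82684) at week 21 and 74008 (36872 to 87550.4) at week 104, nearly all of it miR-486. The part of these markers in the changes of the family was not tested.

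In adrenal gland 78 of 616 miRNAs rose and 87 fell from week 2 to 6, and 40 and 54 from week 6 to 21. There miR-195-5p had 137 (102 to 213) CPM at week 2, 327 (211 to 461) at week 6, 513 (173 to 629.6) at week 21 and 583 (405 to 693) at week 104. Weeks 2 and 6 met only at their edges, and the range of week 21 reached down through the library named above. The first 2 steps were called (log2 change 1.28, SE 0.14, adjusted p = 2.02e-08 and log2 change 0.87, SE 0.14, adjusted p = 2.68e-05), the second with 0.57 with adjusted p = 0.0437 by library size, short of 1.5-fold. Without the library that stood apart the second was 0.96, SE 0.12, adjusted p = 4.13e-07. miR-497-5p had 74.1 (44.01 to 145) CPM at week 2, 150.0 (102 to 199) at week 6 and 197 (20.5 to 320.4) at week 21. Its rises were 1.09 (SE 0.23, adjusted p = 0.000278) and 0.66 (SE 0.22, adjusted p = 0.0343), the second 0.41 with adjusted p = 0.388 by library size, and 0.83, SE 0.15, adjusted p = 8.16e-05 without the library that stood apart. miR-15b-5p had 114 (90.5 to 138) CPM at week 6 and 57.4 (10.9 to 96.5) at week 21 (log2 change -0.70, SE 0.17, adjusted p = 0.00358), which without that library was -0.57, SE 0.13, adjusted p = 0.00117, short of 1.5-fold and no longer called.

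Liver had rises of 3 members from week 2 to 6, where 61 of 616 miRNAs rose and 137 fell. From week 6 to 21 these were 17 and 28. miR-195-5p had 293 (163 to 402) CPM at week 2 and 568 (394 to 688) at week 6, touching at the edges (log2 change 1.12, SE 0.17, adjusted p = 8.26e-07). miR-497-5p had 164 (103 to 235) and 401 (211 to 484) CPM, with most libraries apart (log2 change 1.36, SE 0.16, adjusted p = 7.17e-09). miR-15a-5p had 261 (154 to 303) and 401 (281 to 521) CPM, with little overlap (log2 change 0.79, SE 0.18, adjusted p = 0.000401). From week 6 to 21 miR-195-5p went to 713 (398 to 812) CPM (log2 change 0.59, SE 0.17, adjusted p = 0.0197), which was 0.25 with adjusted p = 0.417 by library size. miR-15b-5p had 171 (124 to 216) CPM at week 6 and 79.3 (58.3 to 103) at week 21, without overlap (log2 change -0.71, SE 0.19, adjusted p = 0.0153). miR-16-5p had 8417 (7239.8 to 12038) and 5376 (2881 to 7017) CPM, a change of -0.39 (adjusted p = 0.133) by TMM and -0.72 with adjusted p = 0.00908 by library size. miR-122-5p, the marker of liver cells, was at 31564 (21229.6 to 36773) CPM at week 2 and 28364 (19418 to 35157) at week 6 and was not called at any step.

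In brain and heart single members changed. In brain 90 of 616 miRNAs rose and 95 fell from week 2 to 6, and 37 and 36 from week 6 to 21. In heart these were 89 and 100, and 38 and 78. miR-195-5p had 869.7 (538 to 1129.7) CPM in brain at week 2 and 1284 (1003 to 1422) at week 6, with overlap (log2 change 0.87, SE 0.11, adjusted p = 3.4e-07). In heart it had 861 (674 to 1041) CPM at week 2, 952 (677 to 1084) at week 6, 826 (669 to 1033) at week 21 and 965 (648 to 1683) at week 104, ranges that overlapped throughout. The rise in heart from week 2 to 6 (log2 change 0.65, SE 0.10, adjusted p = 3.46e-06) was not called by library size (0.14 with adjusted p = 0.308), by DESeq2 or, at 0.52, SE 0.09, adjusted p = 2.56e-05, without the heart libraries that stood apart. miR-15b-5p in brain had 145 (109 to 169) CPM at week 2, 69.7 (59.6 to 91.8) at week 6, 36.9 (32.6 to 45.8) at week 21 and 43.7 (35.2 to 48.9) at week 104. The first 3 ages did not overlap, and both steps were falls (log2 change -0.63, SE 0.12, adjusted p = 8.94e-05 and log2 change -0.79, SE 0.12, adjusted p = 4.69e-05). In heart miR-15b-5p had 208 (129.8 to 226) CPM at week 6 and 95.2 (81.4 to 131) at week 21, barely overlapping (log2 change -0.78, SE 0.13, adjusted p = 2.72e-05).

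Markers in brain did not move as 1 group. The brain list (3 of 3, miR-9a-5p the most abundant) was 73610.4 (59596 to 99537) CPM at week 2 and 51355 (46489.9 to 52021) at week 21, yet miR-124-3p, a miRNA of neurons, rose from week 2 to 6 (0.89, SE 0.12, adjusted p = 3.09e-07), and miR-9a-5p was not called at any step. From week 6 to 21, where miR-15b-5p fell, 3 of 4 miRNAs of the red cell list fell, among them miR-451-5p (-1.26, SE 0.17, adjusted p = 1.06e-05). The epithelial list (3 of 3, miR-200b-3p the most abundant) was 2270.4 (27.0 to 5099) CPM at week 6, 5684 (4593 to 19373) at week 21 and 704 (27.9 to 5362) at week 104. Its libraries differed widely within an age, and none of its miRNAs was called at these steps (miR-200b-3p 2.06, SE 1.08, adjusted p = 0.196 from week 6 to 21). The part of these markers in the changes of the family was not tested.

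In kidney, lung and spleen fewer changes of the members were called. From week 2 to 6, 77 of 616 miRNAs rose in kidney and 124 fell, and 58 rose in spleen and 115 fell. From week 21 to 104, 15 rose in lung and 29 fell. miR-15b-5p in kidney had 156 (128 to 179.6) CPM at week 2 and 109 (69.4 to 137) at week 6, with slight overlap (log2 change -0.63, SE 0.11, adjusted p = 2.06e-05, by library size -0.55 and short of 1.5-fold). It had 59.5 (36.2 to 72.2) CPM at week 21, a change of -0.54 by TMM, short of 1.5-fold, and -0.86 with adjusted p = 0.000265 by library size. In lung it had 111 (80.0 to 163) CPM at week 21 and 156 (114 to 572) at week 104, called as a rise (log2 change 0.66, SE 0.21, adjusted p = 0.0402). Without the female replicate 1 this was 0.35, SE 0.15, adjusted p = 0.143. The call was also lost without replicate 3, without replicate 4 and with replicate number as a block. In lung miR-142-5p of the lymphocyte list was 3287 (1924 to 4166) CPM at week 21 and 4743 (3200 to 15409) at week 104. miR-142-3p was 254 (194 to 468) and 378 (223 to 1185) CPM. Of the same list miR-150-5p was 1055 (420 to 1513) and 1111 (868 to 1529) CPM. miR-181a-5p, its most abundant miRNA, was 32960 (26535 to 34398) and 35145 (20533 to 48453) CPM. miR-497-5p in spleen had 271 (213 to 597) CPM at week 2 and 435 (214 to 669) at week 6 (log2 change 0.82, SE 0.21, adjusted p = 0.00243), and 0.42 with adjusted p = 0.148 by library size. In spleen at this step miR-451-5p of the red cell list was 25284 (20466 to 41290) and then 11116 (6649 to 14633) CPM. Medians of miR-486, miR-144-3p and miR-144-5p were 153604, 1282 and 1609 CPM and then 115063, 1107 and 862. miR-142-5p of the lymphocyte list was 22996 (18739 to 32004) and then 37843 (31023.5 to 44115) CPM. Medians of miR-150-5p, miR-142-3p and miR-181a-5p were 10113, 4875 and 41668 CPM and then 11919, 5235 and 49067. The study describes the spleen RNA of week 2 as of low integrity. The part of these markers and of RNA integrity was not tested. No other change of a member was called in kidney, lung or spleen by TMM, where miR-16-5p had medians of 27344, 27742, 28807 and 30564 CPM in spleen and of 15386, 14050.5, 13353 and 14130.3 CPM in lung.

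Libraries were spread over 8 sequencing lanes, but unevenly within an organ. Consecutive ages of an organ shared 1 to 6 lanes, other than weeks 6 and 21 of brain, which shared 0, since the 7 libraries of week 6 were in lanes 7 and 8 and those of week 21 in lanes 2, 3, 4 and 5. At that step lane and age cannot be told apart from these libraries alone. In the study's records the female brain replicate 2 of week 6 carries a muscle name beside its lane. The female skeletal muscle replicate 2 of week 6 carries a brain name. Both were used under their sample titles, and the lowest brain library of week 6 held 8636 CPM of miR-124-3p. For skeletal muscle, the range of the striated muscle list over the libraries of week 6 is given above. Lane as a further factor in edgeR's fit ended 13 of the 45 called changes while turning none. For miR-15b-5p these were brain from week 2 to 6, then -0.72 (adjusted p = 0.0619), and from week 6 to 21, then -0.69 (adjusted p = 0.497), kidney from week 2 to 6, then -0.58 (adjusted p = 0.000307) and short of 1.5-fold, lung from week 21 to 104, then 0.57 (adjusted p = 0.097), and uterus from week 6 to 21, then -0.86 (adjusted p = 0.118), and from week 21 to 104, then -0.78 (adjusted p = 0.147). For miR-195-5p they were testis from week 2 to 6, then -0.64 (adjusted p = 0.178), and from week 6 to 21, then 0.65 (adjusted p = 0.37), and liver from week 6 to 21, then 0.62 (adjusted p = 0.0602). For miR-497-5p they were testis from week 2 to 6, then -0.72 (adjusted p = 0.185), thymus from week 2 to 6, then 0.45 (adjusted p = 0.0763), adrenal gland from week 6 to 21, then 0.89 (adjusted p = 0.0937), and uterus from week 6 to 21, then 0.84 (adjusted p = 0.117). With 16 libraries, as in testis and uterus, this fit leaves few libraries to measure the spread.

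DESeq2 did not call 5 of the 45 changes. They were miR-195-5p in heart from week 2 to 6 (0.50, adjusted p = 4.89e-09), in liver from week 6 to 21 (0.53, adjusted p = 0.00985) and in testis from week 2 to 6 (-0.46, adjusted p = 0.0143), all short of 1.5-fold, miR-16-5p in skeletal muscle from week 2 to 6 (0.39, adjusted p = 0.0133), also short of it, and miR-497-5p in testis from week 2 to 6 (-0.54, adjusted p = 0.0618). With only miRNAs of a mean count of at least 10 tested in edgeR's fit, the later rises of miR-497-5p in adrenal gland (0.62, adjusted p = 0.0656) and of miR-195-5p in liver (0.55, adjusted p = 0.0269) were not called. With all 320 libraries the first fall of miR-15b-5p in brain was -0.47, adjusted p = 0.0113, short of 1.5-fold. A block of replicate number joins different rats over the sexes and ages of an organ, so here it stands for no animal. It ended 4 changes, among them the later rises of miR-497-5p in adrenal gland and of miR-195-5p in liver. The others were the rise of miR-15b-5p in lung and the first rise of miR-497-5p in thymus.

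Of the 45 called changes, 28 were also called when each replicate number was left out in turn. In thymus these were all changes but the first rise of miR-497-5p, and in testis both rises of aged libraries and both changes of miR-15b-5p. In skeletal muscle they were all but the rise of miR-16-5p, in adrenal gland both rises of miR-195-5p and the first of miR-497-5p, in liver the 3 rises from week 2 to 6, and in uterus the first rise of miR-195-5p. In brain they were the rise of miR-195-5p and the second fall of miR-15b-5p, and in heart both changes. The change of miR-497-5p in spleen was the last of them. The falls of miR-15b-5p in uterus, liver, kidney and adrenal gland, its first fall in brain and its rise in lung were each lost with at least 1 replicate number left out.

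Whether a change with age differed between organs was tested in 1 fit of all 318 libraries. From week 2 to 6, 88 of 275 tests of the members were called, against a background of 21.6% of tests over all miRNAs, from week 6 to 21 52 against 8.72%, and from week 21 to 104 79 against 17.3%. Among miRNAs at least as abundant the background was 29.6%, 14.4% and 27.3%. The members' shares were 32%, 18.9% and 28.7%. These backgrounds pool all pairs of organs, and shares for a single organ were not taken. Thymus and testis had the most miRNAs called from week 21 to 104 (36.7% and 49.8% of 616), and skeletal muscle from week 6 to 21 (34.4%). By library size 67, 43 and 108 tests of the members were called, and 60, 26 and 72 under both scalings with the same sign. Thymus from week 21 to 104 differed from all of the other 10 organs for miR-195-5p and for miR-15a-5p, from 9 for miR-16-5p, from 8 for miR-15b-5p and from 5 for miR-497-5p. For miR-16-5p the change in thymus was below that in spleen by a log2 difference of 1.57, SE 0.23, adjusted p = 1.74e-09 (spleen minus thymus), and by library size by 1.07, SE 0.25, adjusted p = 0.000222. By library size thymus differed from 9 organs for miR-195-5p, 7 for miR-15a-5p, 8 for miR-16-5p, 8 for miR-15b-5p and 9 for miR-497-5p. Testis from week 21 to 104 differed from the other 10 organs for both miR-195-5p and miR-497-5p, for miR-195-5p from thymus by 1.88, SE 0.25, adjusted p = 7.58e-12 (testis minus thymus). By library size this difference between testis and thymus was 0.13, SE 0.26, adjusted p = 0.79, and not called, and each of these members differed from 9 organs. For miR-16-5p and miR-15a-5p testis differed from 1 organ each by TMM and from 8 each by library size. Skeletal muscle from week 6 to 21 differed from 8 of 10 organs for miR-16-5p and miR-15a-5p, but by library size from 1 and 0.

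The ratio of neighbours within a library does not depend on scaling, and it was tested with a two-sided exact permutation test between consecutive ages, adjusted over 66 tests. The ratio of miR-16-5p to miR-15b-5p was 60.7 (34.6 to 91.96) in brain at week 2, 99.7 (82.8 to 158) at week 6, 219 (189 to 254) at week 21 and 202 (189 to 265) at week 104. It was 54.5 (38.2 to 76.5), 83.7 (50.1 to 136), 238 (119 to 368) and 283 (171 to 412) in skeletal muscle. In thymus it stayed lower, from 26.7 (21.1 to 37.1) to 52.5 (34.7 to 89.6). Of 33 tests 8 were called, all rises on the log2 scale: in brain from week 2 to 6 (0.91, adjusted p = 0.00821) and 6 to 21 (1.01, adjusted p = 0.00342), in skeletal muscle over the same steps (0.67, adjusted p = 0.0317 and 1.49, adjusted p = 0.00513), in kidney (0.76, adjusted p = 0.00342) and spleen (0.34, adjusted p = 0.0339) from week 2 to 6, and in adrenal gland (0.56, adjusted p = 0.0262) and lung (0.58, adjusted p = 0.00879) from week 6 to 21. When each replicate number was left out in turn, 2 to 7 of the 33 tests were called. By the study's description the spleen RNA of week 2 was of low integrity, and its part in the spleen ratio was not tested. miR-16-5p may also stem from a second gene beside miR-15a, so the ratio does not follow 1 locus alone.

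The ratio of miR-195-5p to miR-497-5p was smaller, with medians between 1.38 and 4.48 over all organs and ages. In skeletal muscle it was 1.38 (1.11 to 2.50) at week 2, 2.49 (1.89 to 3.22) at week 6, 4.48 (3.94 to 6.85) at week 21 and 3.29 (2.26 to 5.09) at week 104, so these neighbours did not move by the same factor there. By the exact permutation test 5 of 33 tests were called, 3 of them in skeletal muscle (0.70, adjusted p = 0.0192, 0.96, adjusted p = 0.00342 and -0.51, adjusted p = 0.0277 for the 3 steps), 1 in brain (0.46, adjusted p = 0.00879) and 1 in heart (0.40, adjusted p = 0.0339) from week 2 to 6. When each replicate number was left out in turn, 1 to 3 of the 33 tests were called. With 8 libraries against 8 the smallest p of this test is 0.000155, and with 4 against 4, as in testis and uterus, it is 0.0286, so no ratio could be called there after adjustment.

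Sex was compared in the 9 organs found in both. The members hardly differed, with log2 differences (female minus male, mean over the ages) between -0.33 and 0.19 in 45 tests. None was called by edgeR at the adjusted threshold with 1.5-fold, 6 had an unadjusted p under 0.05, and DESeq2 called 0 of them. The background over all miRNAs was 0.812%, and 1.72% among those at least as abundant. A difference between females and males in the change from week 2 to 21 was called in 1 of 45 tests (8 at an unadjusted p under 0.05, 2 called by DESeq2), against a background of 0.667%, or 1.26% among miRNAs at least as abundant. It was miR-195-5p in kidney, with 271 ± 37.2 (SD, n = 4) CPM in females and 175 ± 29.7 (SD, n = 4) in males at week 2, and 232 ± 65.5 (SD, n = 4) and 322 ± 51.9 (SD, n = 4) at week 21. The change in females minus that in males was -0.80 (SE 0.22, adjusted p = 0.0356), and it was not called with any of the 4 replicate numbers left out (-0.48, adjusted p = 0.352 without replicate 1, -0.91, adjusted p = 0.088 without replicate 2, -0.93, adjusted p = 0.0632 without replicate 3, -0.79, adjusted p = 0.161 without replicate 4) nor with lane as a factor (-0.61, adjusted p = 0.346). In skeletal muscle the same difference for miR-195-5p was -1.14 (SE 0.29, unadjusted p = 0.000421, adjusted p = 0.259) and not called by edgeR with all replicates, while it was called without replicate 1 (-1.49, adjusted p = 0.0112) and by DESeq2 (-1.21, adjusted p = 0.00218). In kidney the sexes crossed over the ages, with females above males at week 2 and below them at week 21.

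Across the 318 libraries the levels of miR-16-5p, miR-15a-5p and miR-15b-5p went together and so did those of miR-195-5p and miR-497-5p, as a description and with no test, since libraries share rats, organs and ages. Pearson's r of log2(CPM + 1) was 0.96 between miR-16-5p and miR-15a-5p, 0.88 between miR-16-5p and miR-15b-5p, and 0.84 between miR-15a-5p and miR-15b-5p. It was 0.90 between miR-195-5p and miR-497-5p. Between a member of the first 3 and one of the latter pair it lay from -0.05 to 0.18. Within organs (16 to 32 libraries) the pair miR-195-5p and miR-497-5p had r from 0.23 in brain to 0.96 in thymus, and miR-16-5p and miR-15a-5p from 0.78 in lung to 0.98 in testis. The neighbours miR-16-5p and miR-15b-5p had r from -0.21 in brain to 0.90 in uterus. miR-195-5p and miR-15b-5p had r of -0.94 in testis, -0.78 in thymus and -0.70 in uterus. These groupings did not hold within every organ, since miR-16-5p and miR-497-5p had r from -0.53 in thymus to 0.89 in kidney, where miR-195-5p and miR-497-5p had 0.66. miR-15a-5p and miR-497-5p had r of 0.84 in kidney.

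Likeness was ranked among the miRNAs outside the family with a mean of at least 10 CPM (391 with the 5 members), by Pearson's r over the 44 means of organ and age of log2(CPM + 1), points that share rats. The 3 miRNAs most like miR-16-5p were miR-25-3p (r = 0.89), miR-191a-5p (r = 0.88) and miR-425-5p (r = 0.88). Those most like miR-15a-5p were miR-140-3p (r = 0.90), miR-425-5p (r = 0.86) and miR-140-5p (r = 0.86). Those most like miR-15b-5p were miR-15b-3p (r = 0.97), miR-25-3p (r = 0.95) and miR-17-5p (r = 0.94), of which the first is the opposite arm of its own hairpin and miR-25-3p and miR-17-5p belong to clusters known for promoting the cell cycle. For miR-195-5p they were miR-195-3p (r = 0.88), miR-99a-3p (r = 0.71) and miR-24-3p (r = 0.59). For miR-497-5p they were miR-195-3p (r = 0.89), miR-99a-3p (r = 0.74) and miR-125b-2-3p (r = 0.65). For both, the first miRNA outside the family was the opposite arm of the miR-195 hairpin.

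Relatives and neighbours were counted by the same test in the 11 organs. Of 6 relatives with a like seed, 5 were in the table, miR-15a-5p among them, and miR-424-5p was not analysed here. Of 55 tests they had 4 rises and 14 falls from week 2 to 6, 0 and 7 from week 6 to 21, and 4 and 2 from week 21 to 104, against shares over all miRNAs of 12.0% and 18.6%, 5.28% and 7.62%, and 6.30% and 7.45%. miR-322-5p, an X-linked relative known from muscle cell differentiation, had 2 rises and 10 falls in 33 tests. In kidney it had 730.1 (489 to 869) CPM at week 2 and 292 (189 to 378) at week 6, without overlap (log2 change -1.36, SE 0.15, adjusted p = 2.18e-09). Its cluster partner miR-503-5p, with a mean of 6.14 CPM, had 1 rise and 10 falls. Of the relatives encoded in pantothenate kinase genes, miR-103-3p had 0 rises and 1 fall and miR-107-3p 3 and 1.

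Of the opposite arms, all 5 of 5 were in the table, with 11 rises and 7 falls, 3 and 3, and 2 and 5 of 55 tests at the 3 steps, against the same shares over all miRNAs of 12.0% and 18.6%, 5.28% and 7.62%, and 6.30% and 7.45%. miR-195-3p had 7 rises and 1 fall and miR-497-3p 6 and 0, while miR-15b-3p had 1 rise and 10 falls. miR-16-3p had 2 and 2, and miR-15a-3p, at a mean of 0.680 CPM, 0 and 2. The miRNAs of the miR-17~92 and miR-106b~25 clusters, known for driving proliferation, were all 9 of 9 in the table, and had 3 rises and 34 falls, 0 and 20, and 2 and 20 of 99 tests, where the shares of falls over all miRNAs were 18.6%, 7.62% and 7.45%. From week 21 to 104 all 9 fell in thymus, where 120 of all 616 miRNAs fell, miR-16-5p, miR-15a-5p and miR-15b-5p among them. Of 9 miRNAs of the let-7 family 1, miR-98-5p, was analysed here, with 0 rises and 0 falls, 0 and 0, and 1 and 0 of 11 tests.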

How the data were processed

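Small RNA was sequenced from 320 organ samples, and the deposited table holds counts of reads per mature miRNA, with 1 column per sample. The authors trimmed reads with fastp, aligned them to miRBase with Bowtie, left out miRNAs with very few reads and added candidates from miRDeep2. Counts were used as deposited. CPM is a count over its column's total, so precision differs with the total count of a library. The members and lists were chosen with earlier results of these data known.

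Differences were tested with edgeR 4.0.16 (R 4.3.3, TMM, quasi-likelihood F test, groups of organ, sex and age) over all 616 miRNAs, with Benjamini-Hochberg adjustment within each contrast, and called at an adjusted p under 0.05 with at least 1.5-fold. A standard error is the size of the log2 change over the square root of F. Organ pairs were fitted per age, age steps and sex per organ, and organ by age in 1 fit. The procedure was tested on simulated counts. Ratios had 0.5 added to both counts and were tested with an exact two-sided permutation test. Alternatives were scaling by library size, DESeq2 1.42.0, the full set of 320 samples, sequencing lane, a filter at a mean count of 10, a block of replicate number, other fold thresholds and leaving out each replicate. Levels and plots came from Python 3.11.15, where tables were read by pandas 2.3.3, arrays held by numpy 2.4.6 and figures drawn by matplotlib 3.10.9.

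All 5 members were named, with the organs of highest and lowest level and, per step, of largest rise and fall among those called. Likeness named the 3 miRNAs outside the family with the highest Pearson's r. The lists were relatives with a like seed, opposite arms, the miR-17~92 and miR-106b~25 clusters and let-7, beside markers of brain, liver, striated muscle, heart, kidney, testis, lymphocytes, red cells, endothelium, smooth muscle, endocrine cells and epithelium. Other called changes and single libraries were named after their values were seen.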

Additional observations from a re-analysis of the deposited data

Results flagged for a closer look

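For each member the libraries of an organ and age, both sexes together (4 to 8 libraries), were compared among themselves on the log2 scale. In 20 of 220 such groups 1 library lay far from the others by Dixon's ratio of its gap to the range, which concerned 16 libraries. Chance gives about 1 in 20 groups. For miR-16-5p these were the female heart replicate 4 of week 104 with 5934 CPM, the female skeletal muscle replicate 3 of week 2 with 2182 CPM and the testis replicate 3 of week 6 with 19915 CPM. For miR-195-5p they were the male adrenal gland replicate 1 of week 21 with 173 CPM, the female heart replicate 1 of week 6 with 677 CPM and the male thymus replicate 3 of week 104 with 873 CPM. For miR-15a-5p they were the female heart replicate 4 of week 104 with 312 CPM, the male liver replicate 1 of week 21 with 196 CPM, the testis replicate 3 of week 104 with 159.6 CPM and the female thymus replicate 3 of week 21 with 725 CPM.

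For miR-497-5p the libraries far from their groups were the male adrenal gland replicate 1 of week 21 with 20.5 CPM, the female liver replicate 3 of week 6 with 211 CPM and the male liver replicate 4 of week 104 with 219.6 CPM. For miR-15b-5p they were the male adrenal gland replicate 1 of week 21 with 10.9 CPM, the female heart replicate 1 of week 6 with 129.8 CPM, the female lung replicate 1 of week 104 with 572 CPM, the male spleen replicate 4 of week 6 with 622 CPM, the female spleen replicate 1 of week 104 with 1511 CPM, the testis replicate 2 of week 21 with 546 CPM and the male thymus replicate 1 of week 104 with 128 CPM.

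Changes that differed between groups by a test of the difference itself were these. The change of miR-195-5p in kidney from week 2 to 21, females minus males, was -0.80 on the log2 scale. This call was lost with each replicate number left out and with lane as a factor. Of 55 pairs of organs, the change from week 2 to 6 differed in 6 for miR-16-5p, 31 for miR-195-5p, 10 for miR-15a-5p, 24 for miR-497-5p and 17 for miR-15b-5p. From week 6 to 21 it differed in 9, 21, 8, 13 and 1 pairs in the same order, and from week 21 to 104 in 11, 20, 11, 14 and 23. Over all miRNAs 21.6%, 8.72% and 17.3% of pairs differed at these steps, and 29.6%, 14.4% and 27.3% among those at least as abundant. All these counts are by TMM. By library size the 5 members together had 67, 43 and 108 of 275 pairs, against 88, 52 and 79. Counts of single members moved as well. From week 6 to 21 spleen differed from 6 organs for miR-15b-5p, against 0 by TMM. At that step skeletal muscle differed from 0 for miR-15a-5p, against 8 by TMM.

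The 2 libraries left out of the comparisons held reads of all 5 members. The male brain replicate 3 of week 6 had 10576 CPM of miR-16-5p, 946 of miR-195-5p, 437 of miR-15a-5p, 500.0 of miR-497-5p and 118 of miR-15b-5p. The female spleen replicate 4 of week 104 had 16806 CPM of miR-16-5p, 898 of miR-195-5p, 631 of miR-15a-5p, 483 of miR-497-5p and 341 of miR-15b-5p.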

How the results depend on the processing

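Of the 45 called age changes, 23 were called in each of 11 alternatives at the same call rule. Scaling by library size ended 14 and added 5, besides the change of miR-15a-5p in testis from week 21 to 104, which turned from 0.02 to -1.24. Under it the rises from week 2 to 6 were 11 and the falls 2, the rises from week 6 to 21 were 3 and the falls from week 21 to 104 were 8. DESeq2 called 2 falls from week 2 to 6 and 2 differences of sex by age. With lane as a factor there were 0 of each (edgeR, 3 age changes were added). With no fold threshold the rises from week 6 to 21 were 13. At 2-fold there were 117 organ pairs at week 21, 6 rises and 0 falls from week 2 to 6, 3 and 0 from week 6 to 21, 3 and 3 from week 21 to 104, 0 differences of sex by age, and 47 and 21 differences of organ by age at the first steps. All 320 samples, a mean count of at least 10, and leaving out the 8 libraries that stood apart, chosen after seeing the data, moved no count of a comparison by over 1.5 times. The cause of each move was not tested, beyond the fold thresholds themselves.

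Leaving out a replicate number gave 192 to 200, 182 to 202, 173 to 182 and 154 to 169 organ pairs by age, 15 to 18 rises and 2 to 4 falls from week 2 to 6, 5 to 8 and 4 to 5 from week 6 to 21, and 4 to 5 of each from week 21 to 104. It gave 0 sex differences each time, 0 to 1 of sex by age, and 58 to 80, 25 to 48 and 67 to 89 of organ by age. Ratios, left out in this way as a choice made after seeing the data, gave 2 to 7 calls for miR-16-5p over miR-15b-5p and 1 to 3 for miR-195-5p over miR-497-5p. With 1 added to both counts they gave 8 and 5. By Spearman 8 of 15 likest miRNAs were shared with Pearson. With TMM library sizes 21 of 55 levels moved by at least 1 SD.

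Replicate numbers were not used to pair the samples, since the sources used here do not say that a number names 1 rat. Between organs the median correlation of deviations was 0.00807 over 1422 pairs of the same number (390 over 0.1) and -0.00492 over 4266 pairs of different numbers (967 over 0.1). Of 318 samples, 100 correlated best with their own of the 4 numbers, where no link at all would give about 1 in 4. These values do not settle whether a number names 1 rat. With the replicate block the counts were 192, 199, 177 and 162 organ pairs, 16 rises and 4 falls, 6 and 6, and 4 and 5 for the steps, 0 for sex, 1 for sex by age and 88, 52 and 79 for organ by age. For organ pairs the block was sex with replicate number within an age, and elsewhere replicate number alone.

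CPM depends on the other miRNAs of a library, and no spiked RNA was used to set an absolute level. The lowest member count of any library was 14, so depth limits miR-15b-5p most.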
